A study of Mus musculus with 2 samples.

Results

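The 40 genes described here act in mitosis and in the G2 phase before it, and they were chosen by symbol for these known roles, with earlier results of these data known but with no limit set on their values, from the 32285 genes counted in each library. All 40 were found under a single Ensembl identifier. The data are single-cell RNA sequencing of tumors from 2 mice that carried Krt8-CreERT, Rosa26-mTmG and MMTV-PyMT, with 1 library per mouse and no second condition. MMTV-PyMT expresses the polyomavirus middle T antigen in mammary epithelium, and the Krt8 promoter drives a tamoxifen-inducible Cre, so that GFP marks cells that expressed keratin 8 at induction and the descendants of such cells. Both mice received 150 mg/kg tamoxifen on 3 days at 5 weeks of age and on 3 days at 6 weeks, the tumors were taken at a volume of 1.5 cm3, and GFP-expressing cells were sorted. The cells carry the cluster numbers (0 to 17) of the deposited annotation, and these clusters have no cell type names here.

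Cells enter mitosis when CDK1, bound to a B-type cyclin, is freed of inhibitory phosphates by CDC25 phosphatases. Aurora and Polo-like kinases then help to build the spindle and to correct faulty attachments, kinetochores tie chromosomes to microtubules, and the anaphase-promoting complex (APC/C) ends the phase by marking cyclin B for destruction. Transcripts of many of these genes build up in G2 and mitosis and fall in resting cells, which is why they are used as a sign of proliferation in breast tumors.

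Unique molecular identifiers (UMIs), each standing for 1 captured RNA molecule, were counted near the 3' end of the transcript, and a level in CPM is the number of UMIs of 1 gene among every 1000000 UMIs of the cells summed, with no correction for transcript length. The annotation covers 3829 cells of mouse 1 and 5330 cells of mouse 2, with a median of 15014 and 9470 UMIs per cell. Between the libraries, 20 barcodes were shared, 9 of them in the annotated cells. In the marker lists, the 7 luminal genes (keratins, claudins and Epcam) summed to 8221 to 29902 CPM over the 18 clusters of mouse 1 and to 4252 to 31296 CPM in mouse 2. Fibroblast markers reached 1472 and 2850 CPM and endothelial markers 21.7 and 309 CPM in cluster 6, and at most 2.20 and 0.824 CPM in cluster 16. With 2 mice of 1 group, values of clusters are given per mouse and as descriptions, since the clustering itself used these genes' values. In sums of cells, fewer cells with a transcript and less transcript per cell cannot be told apart unless a share of cells is given.

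The 40 genes were concentrated in cluster 16, a small cluster of 34 cells in mouse 1 and 129 cells in mouse 2. In mouse 1 they summed to 5048 CPM inside it, against 407 CPM in all other annotated cells, and in mouse 2 to 6259 CPM, against 532 CPM. Cluster 16 thus stood 12.4-fold and 11.8-fold above the remaining cells. It held 19.3% of all UMIs of the 40 genes in mouse 1 with 1.89% of all UMIs, and 44.5% in mouse 2 with 6.39% of all UMIs. Over all annotated cells the level was 494 CPM in mouse 1 and 898 CPM in mouse 2.

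Clusters 8 and 4 came next in both mice, at 1136 and 1139 CPM in cluster 8 and at 1174 and 1091 CPM in cluster 4 (mouse 1 and mouse 2). Their order differed between the mice, with cluster 4 above cluster 8 in mouse 1 and below it in mouse 2. Together they held 29.8% of the UMIs of the 40 genes in mouse 1 and 23.8% in mouse 2, with 12.8% and 19.3% of all UMIs. Cluster 1 (814 and 820 CPM) and cluster 14 (627 and 696 CPM) followed, and their median depth was only 1258 and 1009 UMIs per cell in cluster 1 and 2908 and 2085 UMIs in cluster 14. The other 13 clusters lay between 190 CPM (cluster 15, mouse 2) and 618 CPM (cluster 9, mouse 2). From cluster 9 down to cluster 7, the spread between the mice (an SD of 26.5 to 149 CPM) was larger than most steps between neighbouring clusters, so that no firm order can be read there.

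**Figure D1:**
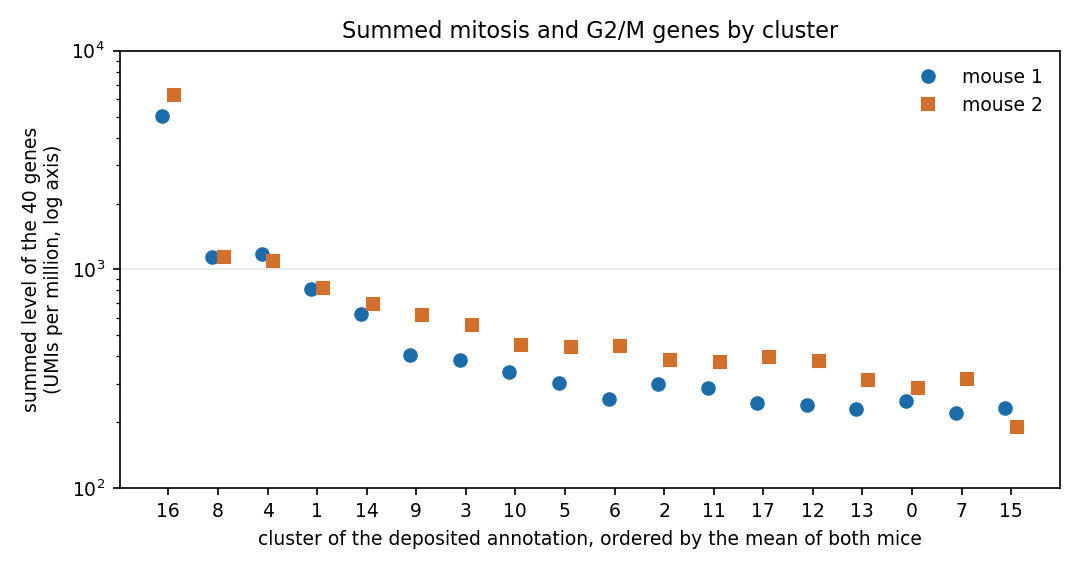
Summed level of the 40 genes (CPM, log axis) in each cluster of the deposited annotation, for mouse 1 (circles) and mouse 2 (squares), with clusters ordered by the mean of both mice. Cluster 16 lies at 5048 and 6259, clusters 8 and 4 lie between 1091 and 1174, and cluster 15 is lowest by the mean.

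Cluster 16 ranked first of the 18 clusters for 39 of the 40 genes in each mouse. The exception was Ccnb2 in mouse 1 and Cks1b in mouse 2. Across the 40 genes, the median fold between cluster 16 and all other cells was 19.8 in mouse 1 and 20.6 in mouse 2, beside medians of 0.987 and 0.917 over all genes with at least 20 UMIs. More than 10-fold was reached by 32 and 33 of the 40 genes, and by 1.59% and 1.32% of all genes. These folds describe the cluster and were not tested, because the genes themselves took part in forming it.

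The engine of mitotic entry split into sharply concentrated and widely present members. Cdk1, the kinase itself, had 200 and 211 CPM in cluster 16 (values run mouse 1, then mouse 2), against 10.0 and 9.49 CPM in the other cells. Ccnb1, the main mitotic cyclin, had 48.7 and 68.1 CPM, against 2.49 and 3.32 CPM in the other cells. Ccnb2, the second B-type cyclin, had 37.0 and 67.3 CPM in cluster 16, against 4.42 and 7.07 CPM outside it, and in mouse 1 it was a little higher in cluster 4 (43.1 CPM). Cdc25c, a phosphatase that activates CDK1, was scarce at 9.03 and 17.0 CPM, against 0.591 and 1.11 CPM. The CDK-binding subunits behaved otherwise. Cks2 had 216 and 295 CPM in cluster 16, against 63.7 and 80.9 CPM in the other cells, and Cks1b had 212 and 206 CPM, against 86.0 and 105 CPM. Cks1b was thus only 2.47-fold and 1.95-fold higher in cluster 16, the smallest fold of the 40 genes in each mouse, and in cluster 8 of mouse 2 it reached 294 CPM.

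The mitotic kinases gave few UMIs, a large share of them in cluster 16. Ttk, the kinase at the start of the spindle checkpoint, had 16.2 and 11.5 CPM in cluster 16, against 0.156 and 0.319 CPM elsewhere, and 66.7% and 71.2% of its UMIs lay in this cluster. Bub1, a checkpoint kinase at the kinetochore, had 37.9 and 32.7 CPM, against 0.869 and 0.806 CPM. Plk1, the Polo-like kinase, had 17.2 and 39.0 CPM, against 0.678 and 1.22 CPM, and Aurka, which acts at centrosomes, had 15.3 and 30.5 CPM, against 0.939 and 1.57 CPM. As a group these 4 genes summed to 86.7 and 114 CPM in cluster 16, 32.8-fold and 29.0-fold above the other cells.

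The chromosomal passenger complex, which corrects attachments and later guides cytokinesis, summed to 492 and 515 CPM in cluster 16, against 14.8 and 18.8 CPM. Aurkb, its kinase, had 98.4 and 72.5 CPM in cluster 16, against 1.29 and 1.18 CPM outside, and was among the most concentrated of all members at 76.5-fold and 61.4-fold. Birc5 (survivin) had 235 and 248 CPM, against 9.09 and 11.0 CPM, and Cdca8 (borealin) had 159 and 195 CPM, against 4.40 and 6.60 CPM. Of the kinetochore genes, Ndc80 and Nuf2, which form the microtubule-binding Ndc80 complex together, were 42.5-fold and 44.2-fold higher in cluster 16 of mouse 1 and 54.0-fold and 33.7-fold higher in mouse 2. Cenpf (100 and 170 CPM, against 6.14 and 7.67 CPM) and the kinesin Cenpe (65.9 and 82.4 CPM, against 4.19 and 6.45 CPM) were less concentrated. Cenpa, the histone H3 variant of centromeres, had 57.8 and 153 CPM in cluster 16, against 7.61 and 13 CPM, so that the mice differed more inside the cluster than for most members.

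The 11 spindle genes summed to 616 and 767 CPM in cluster 16, against 26.6 and 36.7 CPM in the other cells. Among them were Tpx2, an activator of Aurora A (96.6 and 161 CPM), and Hmmr, a spindle-associated hyaluronan receptor (107 and 153 CPM). The kinesin Kif11, which pushes spindle poles apart, had 72.2 and 85.7 CPM, and Nusap1, which bundles microtubules near chromosomes, had 75.8 and 97.0 CPM. Both were at most 2.21 CPM outside cluster 16. Kif20b (54.2 and 50.8 CPM), Tacc3 (65.0 and 74.7 CPM), Ckap2l (52.4 and 56.1 CPM), Gtse1 (19.0 and 11.0 CPM), Dlgap5 (18.1 and 20.6 CPM) and Kif2c (7.22 and 20.6 CPM) make up the rest of the group with Ckap2. Ckap2, another spindle-associated protein, had 47.8 and 36.8 CPM, against 6.45 and 7.52 CPM, the smallest fold of this group in each mouse at 7.42 and 4.90.

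Ube2c, the ubiquitin-conjugating enzyme of the APC/C, had 260 and 529 CPM in cluster 16, against 13.2 and 18.2 CPM in the other cells. Cdc20, the activator that APC/C uses at anaphase, had 74.0 and 138 CPM, against 7.53 and 9.0 CPM, and Cdca3 had 114 and 131 CPM, against 5.81 and 8.91 CPM. All 3 genes were higher in mouse 2 than in mouse 1 inside the cluster, as were 30 of the 40 genes. Among the cytokinesis genes, Anln (anillin, a scaffold of the contractile ring) had 110 and 132 CPM, Ect2 (which acts at the cleavage plane) had 55.1 and 76.1 CPM, and Kif23 (a kinesin of the central spindle) had 35.2 and 38.2 CPM. In the other cells these 3 genes had 6.71 and 10.1 CPM, 2.21 and 3.47 CPM, and 1.23 and 1.63 CPM.

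Genes of chromosome structure supplied the most UMIs. Hmgb2, a chromatin protein that bends DNA, had 946 and 1206 CPM in cluster 16, against 55.2 and 90.7 CPM outside. Top2a, the topoisomerase that untangles sister chromatids, had 491 and 415 CPM, against 8.61 and 7.43 CPM, and was 57.1-fold and 55.9-fold higher. Mki67, which encodes the Ki-67 protein that coats mitotic chromosomes, had 366 and 495 CPM, against 13 and 24.1 CPM. These 3 genes alone made up 35.7% and 33.8% of the summed level in cluster 16. Smc4, a condensin subunit, had 326 and 285 CPM, against 50.1 and 48.3 CPM, and Lbr, the lamin B receptor of the nuclear envelope, had 48.7 and 59.6 CPM, against 11.9 and 14.4 CPM. Smc4 and Lbr, like the CKS subunits, were therefore widely present outside cluster 16.

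**Figure D2:**
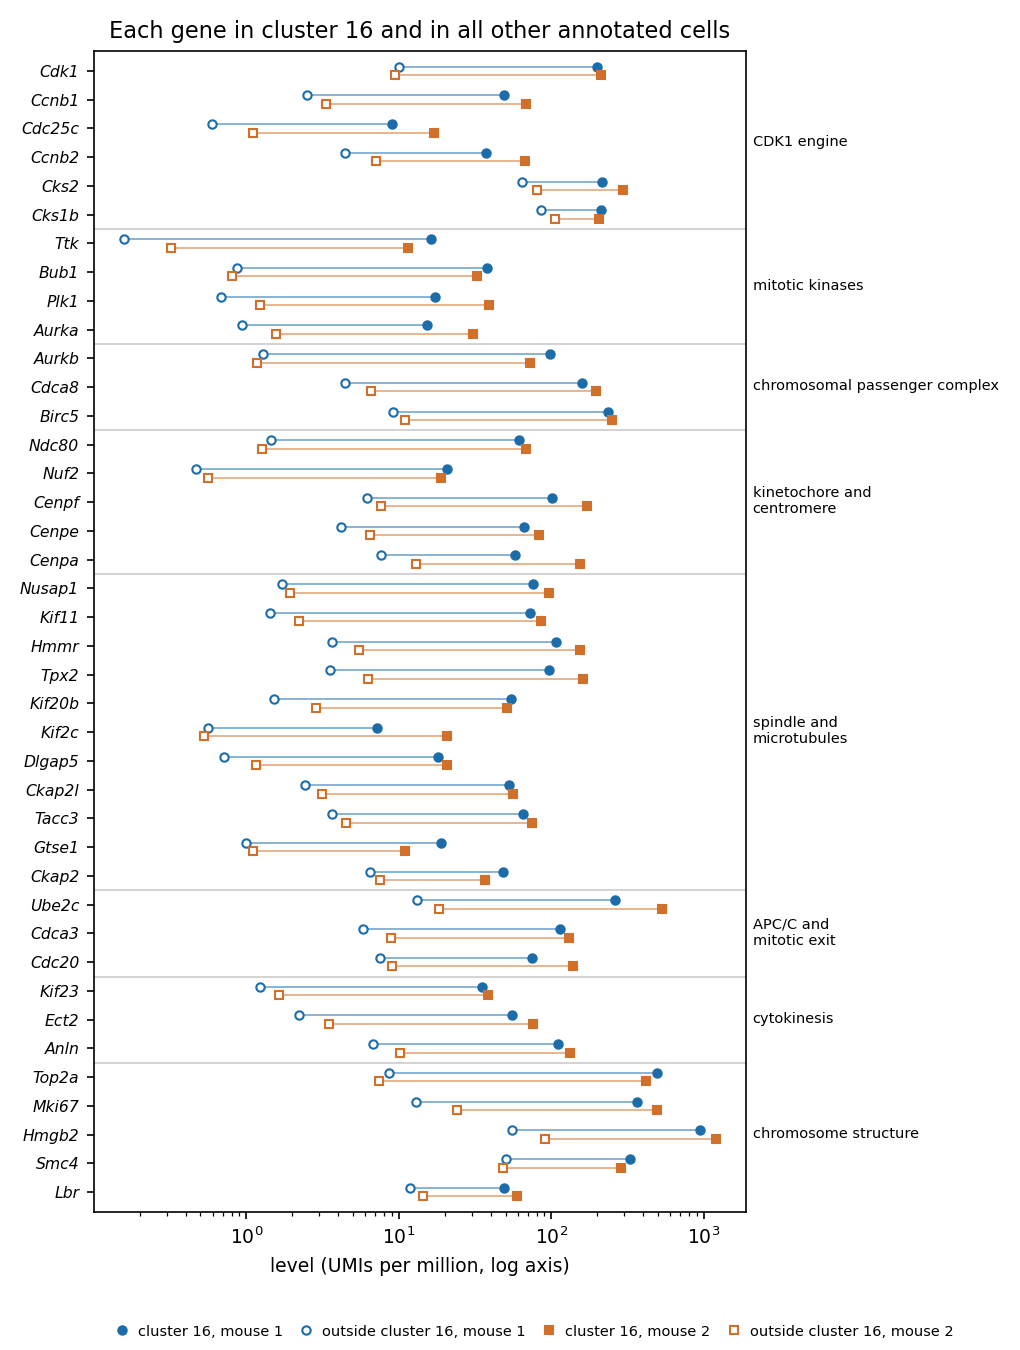
Level of each of the 40 genes (CPM, log axis) in cluster 16 (filled symbols) and in all other annotated cells (open symbols), for mouse 1 (circles) and mouse 2 (squares), grouped by role. By the mean of both mice, the distance between filled and open symbols is widest for Aurkb, Ttk and Top2a, with Ttk at 104-fold in mouse 1 and 36.2-fold in mouse 2, and it is narrowest for Cks1b (2.47-fold and 1.95-fold).

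To compare detection per cell at equal depth, every cell was reduced to 2000 randomly drawn UMIs, which left out 492 annotated cells of mouse 1 and 857 of mouse 2 that held fewer. At this depth Hmgb2 was seen in 82.4% of cluster 16 cells of mouse 1 and 86.0% of mouse 2, against 7.71% and 10.7% in cluster 0, the largest cluster. Mki67 was seen in 41.2% and 59.7% of cluster 16 cells, against 0.208% and 0.303% of cluster 0 cells, and Top2a in 47.1% and 50.4%, against 0.208% and 0.227%. Cks1b was seen in 26.5% and 31.0%, against 13% and 12.3% in cluster 0. With all UMIs of the same cells, at medians of 33079 and 26972 UMIs in cluster 16 and 15278 and 10615 UMIs over all cells of cluster 0, including those left out as too shallow, Mki67 was seen in 94.1% and 98.4% of cluster 16 cells, against 1.67% and 1.82% of cluster 0 cells. Only 5 members (Cks1b, Cks2, Smc4, Hmgb2 and Lbr) exceeded 1% of the thinned cluster 0 cells in both mice.

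Outside cluster 16, clusters 4 and 8 held the highest level for 27 of the 40 genes in each mouse. In both mice 13 genes were higher in cluster 4 than in cluster 8, and 15 were lower, while the others did not keep the same direction in both mice. These differences were not tested, and the matching counts over all genes were not made. Some rest on few molecules, such as Kif23 at 3.88 and 2.54 CPM in cluster 4, against 3.64 and 2.06 CPM in cluster 8. Ccnb2 had 43.1 and 37.5 CPM in cluster 4, against 9.20 and 8.23 CPM in cluster 8, and Hmgb2 had 183 and 254 CPM in cluster 4, against 81.9 and 44.5 CPM in cluster 8. Cdca8 (25.4 and 26.1 CPM, against 13 and 9.0 CPM) and Lbr (20.5 and 20.9 CPM, against 10.3 and 11.8 CPM) were on the same side. In the other direction, Cdk1 had 34.2 and 18.2 CPM in cluster 4, against 69.1 and 38.3 CPM in cluster 8, Ube2c had 45.9 and 40.2 CPM, against 97.1 and 81.0 CPM, and Top2a had 22.6 and 12.8 CPM, against 47.5 and 32.9 CPM. The cyclin that partners CDK1 and the kinase itself therefore had opposite orders in these clusters, while the summed levels were alike.

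In the shallow cluster 1, Hmgb2 and Mki67 supplied the most UMIs of the 40 genes. They gave 21.1% and 13.3% of the members' UMIs there in mouse 1, and 23.6% and 11.7% in mouse 2, and Mki67 (108 and 96.1 CPM) was the second-highest member in both mice. The Mki67 share in cluster 16 was 7.24% and 7.92%. Only 451 and 597 UMIs of the 40 genes were counted in cluster 1, and its mitochondrial share of UMIs was 10.3% and 8.96%, against 5.77% and 5.41% in cluster 16. The part of depth and mitochondrial share in these values was not tested.

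The 10 other genes whose level followed the summed 40 genes most closely over the 36 sums of mouse and cluster, among 11398 genes with at least 200 UMIs, were Melk, Ccna2, Knl1, Cenpp, Esco2, Nek2, Racgap1, Cenph, Foxm1 and Kif4. Pearson's r on log2(CPM + 1) was 0.95 for Melk and 0.91 for Kif4, as a description over sums that share libraries. Foxm1, a transcription factor of the G2 and M phases, had 28.0 and 27.5 CPM in cluster 16, and Ccna2, which encodes cyclin A2, had 85.8 and 93.1 CPM.

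Promoters are shown for 5 members because the genes were high in the same clusters, and because the G2 and M program is known to be controlled partly through the cell cycle genes homology region (CHR) and upstream CCAAT boxes. RefSeq promoters on GRCm38.p6, from 250 bases before to 50 bases after the start, were found for 35 of the 40 genes; the 5 without an entry were Cdc25c, Aurkb, Tpx2, Dlgap5 and Smc4. The CHR letters (TTTGAA and its reverse, TTCAAA, and also TTCGAA) occurred in 27 of 35 (77.1%), against 19.4% of all 27025 promoters of the same length, and CCAAT or ATTGG occurred in 27 of 35 (77.1%), against 37.9%. Both kinds occurred in 23 of 35 (65.7%), against 7.70%. A match is a description of the letters and not a measured binding site. The sequences run from 120 bases before to 30 bases after the start, 5′ to 3′ on the gene's strand, with CHR and CCAAT letters in capitals.
Cdk1 (chr10:69352883-69353032, minus strand): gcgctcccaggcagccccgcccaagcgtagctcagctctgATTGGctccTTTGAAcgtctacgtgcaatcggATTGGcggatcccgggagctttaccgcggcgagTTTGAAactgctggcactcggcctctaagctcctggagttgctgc
Ccnb2 (chr9:70421525-70421674, minus strand): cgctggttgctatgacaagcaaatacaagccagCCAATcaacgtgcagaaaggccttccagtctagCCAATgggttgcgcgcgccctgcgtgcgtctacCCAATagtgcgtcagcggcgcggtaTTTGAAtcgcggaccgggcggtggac
Ccnb1 (chr13:100786457-100786606, minus strand): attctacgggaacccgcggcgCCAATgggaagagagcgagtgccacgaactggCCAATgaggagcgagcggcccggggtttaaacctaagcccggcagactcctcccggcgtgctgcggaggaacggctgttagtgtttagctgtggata
Cdc20 (chr4:118437314-118437463, minus strand): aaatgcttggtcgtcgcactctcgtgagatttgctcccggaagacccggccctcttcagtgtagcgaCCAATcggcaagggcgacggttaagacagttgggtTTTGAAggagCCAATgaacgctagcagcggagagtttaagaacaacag
Ube2c (chr2:164769809-164769958, plus strand): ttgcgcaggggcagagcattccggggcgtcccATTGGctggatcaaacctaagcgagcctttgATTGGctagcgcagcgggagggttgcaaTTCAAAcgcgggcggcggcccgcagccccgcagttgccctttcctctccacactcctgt

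The Cdc20 promoter holds CHR letters 18 bases before the start and the Ube2c promoter 29 bases before it, each downstream of CCAAT letters. In Cdc20 another CCAAT match, 8 bases before the start, lies downstream of the CHR letters. The Ccnb1 window holds CCAAT letters and none of the CHR letters searched for. Other spellings of the CHR were not searched for. Genes with CHR letters in the promoter had a median fold of 19.9 and 21.9 between cluster 16 and the other cells (27 genes), and genes without them 19.4 and 18.6 (8 genes). The difference was not tested.

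Cells with many members detected also occurred outside cluster 16. A cell was called mitotic-gene-rich when at least 5 of the 40 genes were seen among its 2000 drawn UMIs. Outside cluster 16 this held for 45 of 3303 cells of mouse 1 (1.36%, exact Clopper-Pearson 95% interval 0.995% to 1.82%) and for 77 of 4344 cells of mouse 2 (1.77%, 1.40% to 2.21%), against 27 of 34 (79.4%, 62.1% to 91.3%) and 120 of 129 cells (93.0%, 87.2% to 96.8%) in cluster 16. The intervals cover counting error only. Just outside the limit lay 18 and 42 cells with 4 members, and just inside it 7 and 22 cells with 5. With all UMIs of the same cells, 19.7% and 17.9% of the cells outside cluster 16 held 5 or more members, and 8.02% and 9.39% of the cluster 0 cells did, so that the share depends on depth.

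Of the rich cells outside cluster 16, 36 of 45 in mouse 1 (80.0%, 65.4% to 90.4%) and 56 of 77 in mouse 2 (72.7%, 61.4% to 82.3%) were in clusters 4 and 8. In cluster 4 they were 21 of 122 cells (17.2%) and 42 of 421 cells (9.98%), and in cluster 8 they were 15 of 166 (9.04%) and 14 of 222 (6.31%). The shallow clusters 1 and 14 held some too, with 3 of 77 and 5 of 76 cells in cluster 1 and 4 of 55 and 2 of 80 cells in cluster 14. Cluster 0 held 1 of 960 cells and 0 of 1321 cells, and the count of 0 allows a share of up to 0.279% by the exact interval. The cells of clusters 4 and 8 that were not rich still summed to 728 and 701 CPM of the 40 genes, against 249 and 286 CPM in cluster 0.

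**Figure D3:**
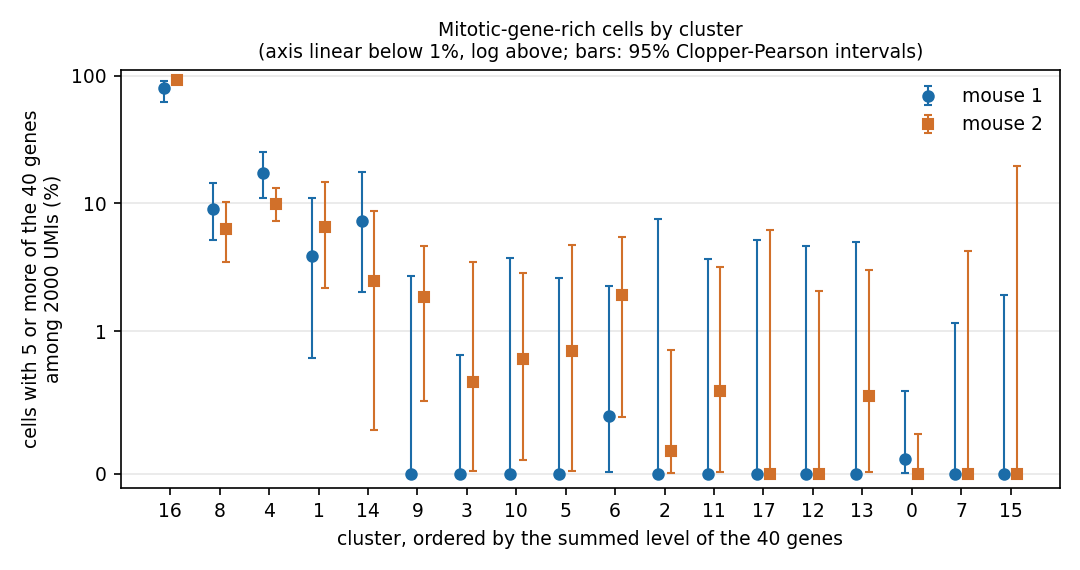
Share of cells with 5 or more of the 40 genes among 2000 UMIs (%, axis linear below 1 and logarithmic above) by cluster, for mouse 1 (circles) and mouse 2 (squares), with 95% Clopper-Pearson intervals. Cluster 16 is at 79.4% and 93.0%, clusters 4 and 8 lie between 6.31% and 17.2%, clusters 1 and 14 between 2.50% and 7.27%, and the remaining clusters at 1.91% or below.

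The rich cells were chosen on the drawn UMIs and measured on the UMIs that were not drawn, so that chosen and measured molecules do not overlap. In these molecules the summed level of the 40 genes was 4372 CPM in the rich cells outside cluster 16 of mouse 1 and 4938 CPM in mouse 2, against 5064 and 6259 CPM in cluster 16 and 342 and 431 CPM in the other cells outside it. All 40 genes were higher in the rich cells than in the other cells in both mice, which the choice of cells favors and which is given as a description.

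The rich cells outside cluster 16 differed from cluster 16 in the levels of single members. In both mice 10 of the 40 genes were higher in the rich cells and 17 were lower, while the other 13 differed in direction between the mice. The sum of the 40 genes was itself lower in the rich cells. The matching share over all genes was not counted, so these counts are a description of the members only. Cenpa had 178 and 203 CPM in the rich cells, against 56.7 and 149 CPM in cluster 16. Ccnb2 had 62.6 and 121 CPM, against 36.5 and 66.8 CPM, Cdc25c had 19.3 and 26.0 CPM, against 7.69 and 16.6 CPM, and Cenpe had 89.1 and 145 CPM, against 70.2 and 81.6 CPM. Cdc20, Hmmr, Cdca3, Dlgap5, Cks1b and Cenpf were also above cluster 16 in both mice, by 1.04-fold to 1.93-fold.

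Top2a stood at 229 and 142 CPM in the rich cells, against 494 and 418 CPM in cluster 16. Aurkb had 40.9 and 15.8 CPM, against 100 and 72.5 CPM, Anln had 54.2 and 32.5 CPM, against 110 and 135 CPM, and Smc4 had 177 and 143 CPM, against 324 and 283 CPM. Ndc80, Cdca8, Hmgb2, Ect2, Nusap1, Kif23, Kif11, Bub1, Lbr, Kif20b, Nuf2, Mki67 and Ttk were also lower in the rich cells of both mice, the last on few molecules (1.20 and 6.50 CPM, against 17.3 and 10.9 CPM). Cytokinesis genes as a group summed to 117 and 89.2 CPM, against 201 and 250 CPM. The sum of the kinetochore and centromere genes was 425 and 576 CPM, against 310 and 490 CPM, with Cenpa, Cenpe and Cenpf above cluster 16 and Ndc80 and Nuf2 below it in both mice. Cluster 16 was formed partly by these genes, so these differences were not tested.

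**Figure D4:**
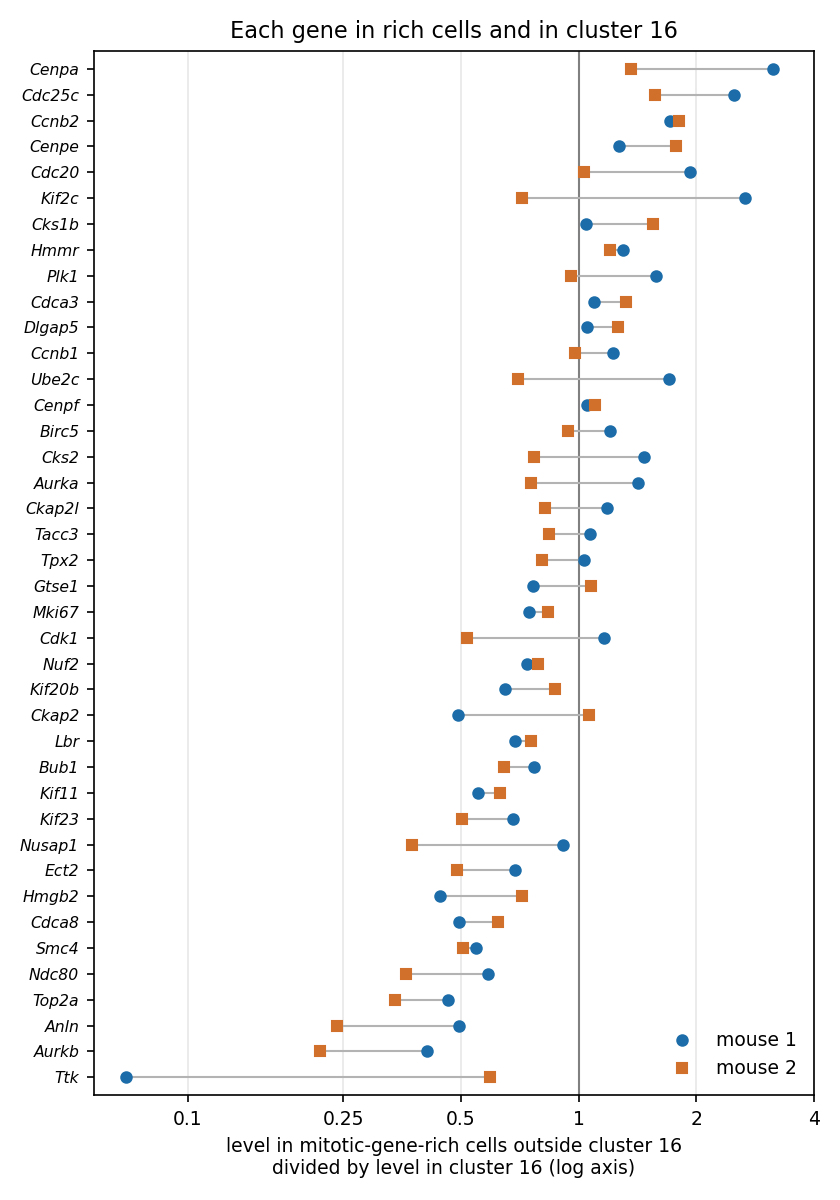
Level of each of the 40 genes in mitotic-gene-rich cells outside cluster 16 divided by its level in cluster 16 (log axis), in UMIs not used to choose the cells, for mouse 1 (circles) and mouse 2 (squares), ordered by the mean of both. Cenpa, Cdc25c and Ccnb2 are above 1 in both mice, and Aurkb, Anln and Top2a are below 0.5.

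Genes outside the list were tested between rich and other cells outside cluster 16 on UMI sums per mouse with edgeR's quasi-likelihood test, Benjamini-Hochberg adjustment over all genes and the mouse as a block. Of 13598 genes, 981 were higher in the rich cells (7.21%) and 1277 were lower (9.39%) at an adjusted p under 0.05. Because most rich cells were in clusters 4 and 8, the same test was run inside these clusters alone, an alternative chosen after seeing the data, and the rises and falls below are given with it. There 695 genes were higher and 553 were lower. Over all these cells, 488 genes were called without the mouse block, 1032 by DESeq2 and 136 to 358 when any 1 of the 4 sums was left out.

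Other mitosis genes rose in the rich cells, with 51 of 54 higher and 1 lower (median log2 fold change 4.34, beside −0.12 over all genes), and within clusters 4 and 8 with 48 of 53 higher (median 3.02). The choice of cells by mitotic genes favors a rise of other cell cycle genes, also in the UMIs not drawn. The calls of such genes, here and among the replication genes below, are therefore a description of the chosen cells. Ccna2 had 67.4 and 73.4 CPM in the rich cells of mouse 1 and mouse 2, against 0.828 and 1.06 CPM in the other cells (log2 fold change 6.13 ± 0.37 SE, edgeR adjusted p = 1.25e-57), and within clusters 4 and 8 its log2 fold change was 4.24. Pbk, a mitotic kinase, had 72.2 and 86.4 CPM, against 1.35 and 1.50 CPM (5.69 ± 0.34 SE, adjusted p = 3.04e-60). Cdkn3, a phosphatase that acts on CDKs, Racgap1 of the central spindle, Mad2l1 of the spindle checkpoint, the kinetochore genes Knstrn, Spc24 and Cenpm, and Cip2a, an inhibitor of a phosphatase, also rose among the 12 largest changes, all 12 of which held within clusters 4 and 8.

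Genes of DNA replication rose as well, with 34 of 37 higher and 0 lower (median log2 fold change 3.04; within clusters 4 and 8, 34 of 37 higher and median 1.83). Rrm2, a subunit of ribonucleotide reductase, had 160 and 142 CPM in the rich cells, against 5.81 and 6.78 CPM (log2 fold change 4.49 ± 0.26 SE, adjusted p = 1.15e-64), and Pclaf, a partner of the sliding clamp PCNA, had 187 and 116 CPM, against 4.08 and 4.20 CPM. Replication histones and related chromatin genes had 12 of 14 higher. Among them, Hist1h2ap had 368 and 294 CPM, against 11.0 and 28.7 CPM. S-phase and mitotic transcripts thus rose in the same sums, and which single cells carried which was not separated here.

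Of the cyclin D, MYC, p53 and CDK inhibitor genes, 1 of 17 tested was higher and 4 were lower. Cdk4, the kinase of G1, had 205 and 168 CPM in the rich cells, against 88.8 and 97.8 CPM (log2 fold change 0.90 ± 0.21 SE), and Myc had 43.3 and 26.0 CPM, against 103 and 57.4 CPM (−1.29 ± 0.27 SE). Within clusters 4 and 8, 0 of 16 tested were higher and 2 were lower, and Cdk4 no longer passed the test (log2 fold change 0.41, edgeR adjusted p = 0.0536). Tubulins and their regulators had 5 of 9 higher and 2 lower, among them Stmn1, a destabilizer of microtubules, at 576 and 607 CPM, against 96.1 and 125 CPM. Within clusters 4 and 8, 5 of these 9 were higher and 1 was lower.

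All 7 luminal markers were lower in the rich cells, also within clusters 4 and 8 (7 of 7). Krt8 had 3241 and 2898 CPM in the rich cells, against 4832 and 6793 CPM in the other cells (adjusted p = 7.05e-18), and Cldn4 had 253 and 626 CPM, against 1251 and 1694 CPM. Of the 12 largest falls, 5 held within clusters 4 and 8 in the same direction. Car6, a secreted carbonic anhydrase, had 22.9 and 22.3 CPM, against 168 and 146 CPM, and within clusters 4 and 8 it had 24.3 and 26.6 CPM, against 124 and 458 CPM. The chemokine Cxcl2 (18.1 and 16.7 CPM, against 170 and 195 CPM), the growth factor Fgf1, Smr3a and Krt19 also fell in both comparisons. By contrast, Ptgs2 (10.8 and 0.929 CPM, against 165 and 75.4 CPM) was at 5.12 and 1.11 CPM, against 6.18 and 3.87 CPM, within clusters 4 and 8 (edgeR adjusted p = 0.565). Ecrg4 turned round there on few molecules, at 10.2 and 3.33 CPM, against 1.79 and 1.14 CPM (log2 fold change 2.08, edgeR adjusted p = 0.0323). Of the immediate early and heat shock genes, 10 of 12 were lower, with Hspa1b at 134 and 169 CPM, against 472 and 361 CPM, whereas within clusters 4 and 8 the same genes split into 3 higher and 3 lower.

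Of 6 fibroblast markers 5 were lower in the rich cells. Col3a1 had 0 UMIs in the rich cells of either mouse, against 19.9 and 25.3 CPM in the other cells, and a floor of 3 UMIs per library makes this at least 5.52-fold and 9.09-fold lower. Within clusters 4 and 8 none of the 6 had enough counts to be tested, and Col3a1 was at 0 and 0.228 CPM in the other cells there. DESeq2 did not call Col3a1 over all these cells. Endothelial markers appeared higher for 4 of 4 genes tested, but in mouse 2 alone: their sum was 102 CPM in the rich cells, against 9.87 CPM in the other cells, while mouse 1 had 2.41 and 2.75 CPM. In mouse 2, 134 of the 136 endothelial UMIs of the 77 rich cells lay in 2 cells, both of cluster 6, which held 0 luminal CPM. Without cells of 3 or more endothelial UMIs, a setting chosen after seeing the data, 983 genes were higher and 1291 were lower.

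The deposited basal score, a per-cell score from 0 to 1 for a published basal signature, was high in the rich cells. Its mean was 0.931 in the rich cells outside cluster 16 of mouse 1 and 0.836 in mouse 2, against 0.216 and 0.141 in the other cells outside cluster 16. In cluster 16 it was 0.976 and 0.963. It followed the number of members detected: from 0.226 and 0.149 with no member seen, it was 0.311 and 0.183 with 3 to 4 members, 0.889 and 0.757 with 5 to 7, and 0.975 and 0.966 with 8 or more. Within clusters 4 and 8, cells with no member seen had 0.0334 and 0.0196, and cells with 8 or more had 0.983 and 0.955.

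Over all cells outside cluster 16, the basal marker genes did not follow the same course. The 7 markers (Krt5, Krt14, Krt17, Trp63, Acta2, Myh11 and Cnn1) summed to 343 and 150 CPM in the rich cells, against 258 and 198 CPM in the other cells, 44.2 and 68.9 CPM in cluster 16, and 3450 and 3512 CPM in cluster 6. The rich cells of mouse 1 included 1 cell of cluster 6, and those of mouse 2 included 3. With all UMIs, rich cells outside clusters 4, 6, 8 and 16 had 0 CPM in mouse 1. In mouse 2 they had 416 CPM with 5 to 7 members and 0 CPM with 8 or more. Within clusters 4 and 8, cells with up to 4 members had at most 6.88 and 4.53 CPM of the markers. Cells with 5 to 7 members had 76.6 and 1.54 CPM there, and cells with 8 or more had 62.1 and 41.4 CPM. In the test, 1 of the 7 was higher and 1 lower (within clusters 4 and 8 none had enough counts to be tested), and each rested on 1 mouse (Myh11 at 37.3 and 0.929 CPM, against 5.47 and 3.96 CPM, and Krt14 at 2.41 and 83.6 CPM, against 50.7 and 89.1 CPM). The rich cells within clusters 4 and 8 had 0 and 0 CPM of Myh11 and 0 and 12.2 CPM of Krt14. Of the rich cells, 43 of 45 and 64 of 77 had a basal score over 0.5, and 38 and 56 of these had no UMI of any basal marker at full depth. Outside cluster 6, 75 of 507 cells with a score over 0.5 in mouse 1 (14.8%) and 187 of 590 in mouse 2 (31.7%) were rich or in cluster 16. Most cells with such a score outside cluster 6 were therefore neither. Of the cells outside clusters 6 and 16 that were not rich, 14.3% and 9.80% had a score over 0.5. The genes of the signature were not used here, and whether it shares genes with the 40 was not tested. The luminal progenitor score went the other way, at 0.200 and 0.191 in the rich cells, against 0.449 and 0.426 in the other cells. Over all cells outside cluster 16, the sum of the 10 luminal progenitor genes of the marker list did not follow it. They summed to 35402 and 30928 CPM in the rich cells, against 30636 and 27863 CPM in the other cells. Cluster 8, which held part of the rich cells, had 52736 and 71769 CPM of these genes, and its part in the sum was not tested. In the test, 2 of the 10 were higher and 4 were lower, and within clusters 4 and 8, 0 were higher and 4 were lower.

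**Figure D5:**
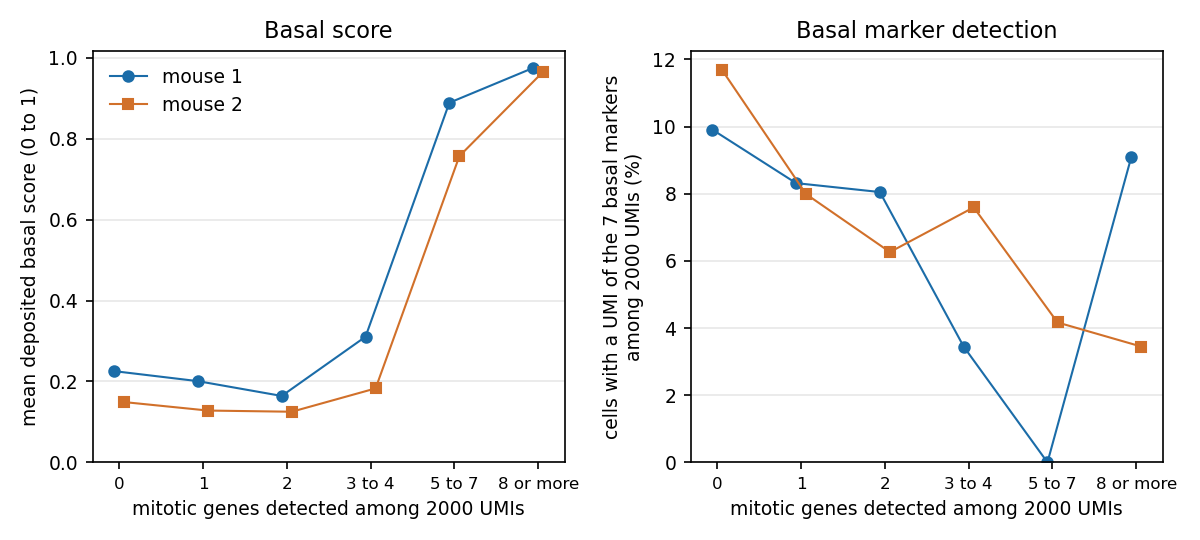
Mean deposited basal score (left, 0 to 1) and share of cells with a UMI of the 7 basal markers among 2000 UMIs (right, %) by the number of the 40 genes detected among 2000 UMIs, in annotated cells outside cluster 16 of mouse 1 (circles) and mouse 2 (squares). The score is at most 0.311 up to 4 members and at least 0.757 from 5 members on, while the marker share does not exceed 11.7% at any number.

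Cluster 6 had a mean basal score of 0.926 and 0.967 and a mean mature luminal score of 0.551 and 0.641, and cluster 13 a mature luminal score of 0.998 and 1.00. The 40 genes were far below their level in cluster 16 in both. They summed to 256 and 446 CPM in cluster 6, against 229 and 312 CPM in cluster 13, on 873 and 709 UMIs and on 279 and 753 UMIs. In mouse 2, 12 of the 167 cells of cluster 6 held 3 or more endothelial UMIs, and they carried 270 of its 709 member UMIs (38.1%). Without them, cluster 6 of mouse 2 was at 297 CPM.

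Low counts left 12 of the 40 genes in the test of cluster 6 against cluster 13 (edgeR as above), beside 9794 genes in all. Of all genes 16.3% were higher and 12.1% were lower, and of the 12 members 1 was higher and 1 was lower, which is close to that background. Ckap2 had 5.28 and 10.1 CPM in cluster 6, against 0.820 and 0.414 CPM in cluster 13 (log2 fold change 3.63 ± 0.88 SE, adjusted p = 0.00148), on 1 UMI in each mouse of cluster 13. Anln had 7.33 and 11.3 CPM in cluster 6, against 9.84 and 36.8 CPM in cluster 13 (−1.26 ± 0.42 SE, adjusted p = 0.0224). DESeq2 gave Anln an adjusted p of 0.676 and Ckap2 none (unadjusted p = 0.0619), and in cells thinned to 2000 UMIs neither gene had enough counts to be tested. Leaving out any 1 of the 4 sums left 0 to 1 members called. The widely present members did not pass the test, with Cks1b at 71.0 and 56.6 CPM, against 35.3 and 48.8 CPM, and Hmgb2 at 39.0 and 88.7 CPM, against 59.0 and 76.1 CPM.

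Against all annotated cells outside clusters 6, 13 and 16, cluster 6 was lower in the 40 genes, at 256 and 446 CPM, against 420 and 545 CPM. That reference includes clusters 4 and 8, at 1174 and 1091 CPM and at 1136 and 1139 CPM. With these clusters left out too, it was at 300 and 384 CPM, below cluster 6 in mouse 2. Without cells of 3 or more endothelial UMIs, cluster 6 was at 255 and 297 CPM, against 300 and 384 CPM. The test below was not run without clusters 4 and 8. Since cluster 6 was formed from the same expression values, it asks only whether both mice show a difference. Of 14257 genes, 12.7% were higher and 7.07% were lower in cluster 6, and of the 39 members tested 0 were higher and 6 were lower (median log2 fold change −0.51, beside −0.06 over all genes). At an unadjusted p under 0.05 there were 0 higher and 13 lower. Cks2 had 32.8 and 54.1 CPM in cluster 6, against 66.6 and 83.6 CPM (−0.87 ± 0.18 SE, adjusted p = 0.00572), and Cdca3 had 0 and 3.14 CPM, against 6.24 and 9.45 CPM (adjusted p = 0.0175). Birc5, Cks1b, Smc4 and Ccnb1 were the other 4, with adjusted p of 0.0410 to 0.0464. Without the mouse block 0 members were called (5 at an unadjusted p under 0.05), DESeq2 called 2, and edgeR called 12 without the cells of 3 or more endothelial UMIs and 0 to 3 without any 1 of the 4 sums. The part of the fibroblast and endothelial markers of cluster 6 in these values was not tested further. Mki67 differed between the mice in this cluster, with 2.64 CPM in mouse 1 and 22.0 CPM in mouse 2, against 13.9 and 25.2 CPM in the other cells.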

How the data were processed

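Processed files of 2 tumor libraries were used. The deposited matrices hold raw UMI counts per gene and barcode, made by the authors with Cell Ranger (6.0.1, genome build mm10). The deposited annotation gives each cell a cluster and signature scores from 0 to 1; per the methods, doublets, low-UMI and high-mitochondrial cells and immune clusters had been taken out ahead of the final clustering in Seurat (4.0.3 in the processing notes). Barcodes without annotation entered no comparison.

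UMIs were summed per mouse and cluster or cell class, since cells of 1 mouse are not replicates. Sums were tested with edgeR (4.0.16; filterByExpr, TMM, glmQLFit, glmQLFTest) in R 4.3.3 with the mouse as a block, because the sums of 1 mouse come from the same animal (correlation of the between-mouse differences 0.14, 0.40 and 0.30 over genes), and Benjamini-Hochberg adjustment at 0.05. The fits rest on 4 sums and 1 residual degree of freedom, so the smallest p-values depend on the spread shared over genes. DESeq2 (1.42.0), other size factors, no filter, no block and left-out sums were alternatives. The test was checked on simulated counts. Cells were thinned without replacement (seed 1). Promoter letters are from RefSeq on GRCm38.p6.

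The members, lists and rules were chosen with earlier results of these data known. Named were all 40 genes, the 12 largest rises and 12 largest falls outside the list (adjusted p under 0.05, same sign in both mice, at least 50 CPM), up to 4 genes per list and the 10 most similar genes.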

Additional observations from a re-analysis of the deposited data

Results flagged for a closer look

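Signal of the 40 genes also appeared in barcodes that carry no annotation and that no comparison used. Of those with at least 2000 UMIs, 19 of 645 (2.95%) in the first mouse and 30 of 599 (5.01%) in the second showed 5 or more of the 40 genes among 2000 drawn UMIs, beside 2.16% and 4.40% of all annotated cells at the same depth. Their mitochondrial share of UMIs was 31.3% and 15.8%, against 43.3% and 23.1% in the other barcodes without annotation. The 7 macrophage markers summed to 0 CPM in these rich barcodes of mouse 1 and to 4314 CPM in mouse 2, against 647 and 2311 CPM in the other barcodes without annotation.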

How the results depend on the processing

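The mean summed level in cluster 16, 5653 CPM, became 5987 CPM with mitochondrial genes left out of the total. As a mean over cells of per-cell CPM it was 5729 CPM. Outside cluster 16, 469 CPM became 501 and 466 CPM under these alternatives. All these moves were smaller than the spread between the mice. Leaving out a mouse only returns the value of the other, 5048 or 6259 CPM in cluster 16 and 407 or 532 CPM outside, so it cannot show stability. The mean share of rich cells outside cluster 16, 1.57%, became 4.70% with 3 members, 0.667% with 8, 1.12% with 36 genes (without Hmgb2, Lbr, Cks1b and Smc4), 0.663% at 1000 UMIs and 18.8% with no thinning, and 1.36% to 1.77% without a mouse. The number of genes called between rich and other cells, 2258, was 1032 with DESeq2, 488 with no replicate block, 1140 with 8 members, 1248 within clusters 4 and 8, 155 outside clusters 4, 8 and 16, and 136 to 358 without a sum. Between cluster 6 and cluster 13, 2 members called became 0 with DESeq2 and in thinned cells (0 at an unadjusted p under 0.05 in each), 1 with no block and 0 to 1 without a sum. Against the other tumor cells, 6 became 2 with DESeq2 size factors, with DESeq2 and in thinned cells, 11 with no filter, 0 with no block, 19 with cluster 16 included, 12 without cells of 3 or more endothelial UMIs, and 0 to 3 without a sum. The causes were not tested. The log2 fold change between rich and other cells changed sign within clusters 4 and 8 for Ecrg4 (2.08), Cdkn1c (0.10) and Prom1 (−0.17). Outside clusters 4, 8 and 16 it did so for Krt14 (1.04), Dusp1 (0.89) and Prom1 (−0.073). Of these only Ecrg4 passed the test with the new sign (edgeR adjusted p = 0.0323). The others had edgeR adjusted p of 0.646 to 0.989, so they show a lost difference and no opposite one. When 1 sum was left out, the endothelial Cdh5 ran between −8.03 and 6.03, Kdr between −7.73 and 4.94, Emcn between −7.75 and 5.04, Pecam1 between −0.49 and 2.81, Myh11 between −2.48 and 2.90 and Krt14 between −4.92 and 0.13. The test within cluster 0 was not run, since it held 1 and 0 rich cells. Low counts limit the comparisons of cluster 6, where most members had under 30 UMIs.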
